A study of Mus musculus with 4 samples.

Results

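The Tbx3-high cells described here are single mouse embryonic stem cells (mESC) that held at least 3 transcripts of Tbx3, counted as unique molecular identifiers (UMIs). They were selected on Tbx3 UMIs alone from the cells that passed a filter on UMIs, detected genes and mitochondrial share. They numbered 2885 of 31989 filtered cells, out of 41142 barcodes in the deposited matrix. The study profiled E14tg2a.4, a male mESC line, as 2 WT samples and 2 Srrm2 hKO samples, in which a gene trap disrupts 1 copy of the splicing factor gene Srrm2, by droplet sequencing of transcript 3′ ends. All samples grew without serum and with LIF, for 24 h or 72 h as the labels have it, with no word on which sample had which, while the methods of the study give a further length for the single cells, and the hKO line is 1 gene-trap line. The 4 libraries lie in 1 matrix in which a barcode suffix from 1 to 4 names the library and nothing used here ties a suffix to a labelled sample. Libraries are therefore given by number, it is unknown which of them are replicates of a genotype, the genotypes could not be compared, and no test was run. Intervals are exact 95% intervals that cover counting error only.

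Tbx3 (chromosome 5, 119670669 to 119684724, plus strand, GRCm38) encodes a T-box transcription factor. In mESC it belongs to the factors that act downstream of LIF to sustain naive self-renewal, the state that resembles the epiblast before implantation, and its level is known to vary from cell to cell in one dish. Cells that leave the naive state pass through a formative state, in which DNA methyltransferases and factors such as Pou3f1, Otx2 and Lef1 are switched on and naive factors decline. Zfp42 (Rex1) is a classical marker of naive cells. Within each library the Tbx3-high cells were compared with cells that held 0 Tbx3 UMIs, at least 5 Zfp42 UMIs and fewer than 5 UMIs of the keratins Krt8 and Krt18 together, called the Tbx3-negative naive cells below. The comparison therefore sets cells with many Tbx3 UMIs against naive cells in which none was counted. A cell with 0 UMIs can still express Tbx3. In library 1 a single Tbx3 level in all cells would leave 24.6% of cells at 0, where 36.3% were observed. The same level and observation were 77.6% and 84.3% in library 2, 48.6% and 61.9% in library 3, and 91.7% and 93.9% in library 4. The Tbx3-high cells were not held to the Zfp42 and keratin limits, which 91.4%, 93.4% and 92.9% of them met in libraries 1 to 3.

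The share of Tbx3-high cells differed widely between libraries. They made up 1884 of 8118 filtered cells in library 1 (23.2%, 22.3 to 24.1), 196 of 8514 in library 2 (2.30%, 1.99 to 2.64), 756 of 7893 in library 3 (9.58%, 8.94 to 10.2) and 49 of 7464 in library 4 (0.656%, 0.486 to 0.867). No interval overlapped another. Library 4 fell just under the minimum of 50 cells, so its values are shown but it entered no count of genes. Its Tbx3-high cells are few enough that a handful of cells sets several of its values.

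Cells with many Tbx3 UMIs were more frequent than a single level of Tbx3 per library would give. If every cell of a library had the same Tbx3 level for its depth, counting (Poisson) variation alone would give 1695 cells with 3 or more UMIs in library 1, 421 in library 3, 26.9 in library 2 and 1.22 in library 4. The observed numbers were 1.11, 1.80, 7.28 and 40.1 times these in libraries 1, 3, 2 and 4. A ratio at a fixed number of UMIs depends on the mean level and does not rank the libraries. The variance of Tbx3 UMIs over their mean, which is 1 for counting variation at equal depth, was 2.09, 2.23, 2.28 and 1.89 in libraries 1 to 4. In library 1, 590 cells held 5 or more UMIs where a single level would give 289, and the highest cell held 23. The highest cells of libraries 2, 3 and 4 held 13, 13 and 7.

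**Figure D1:**
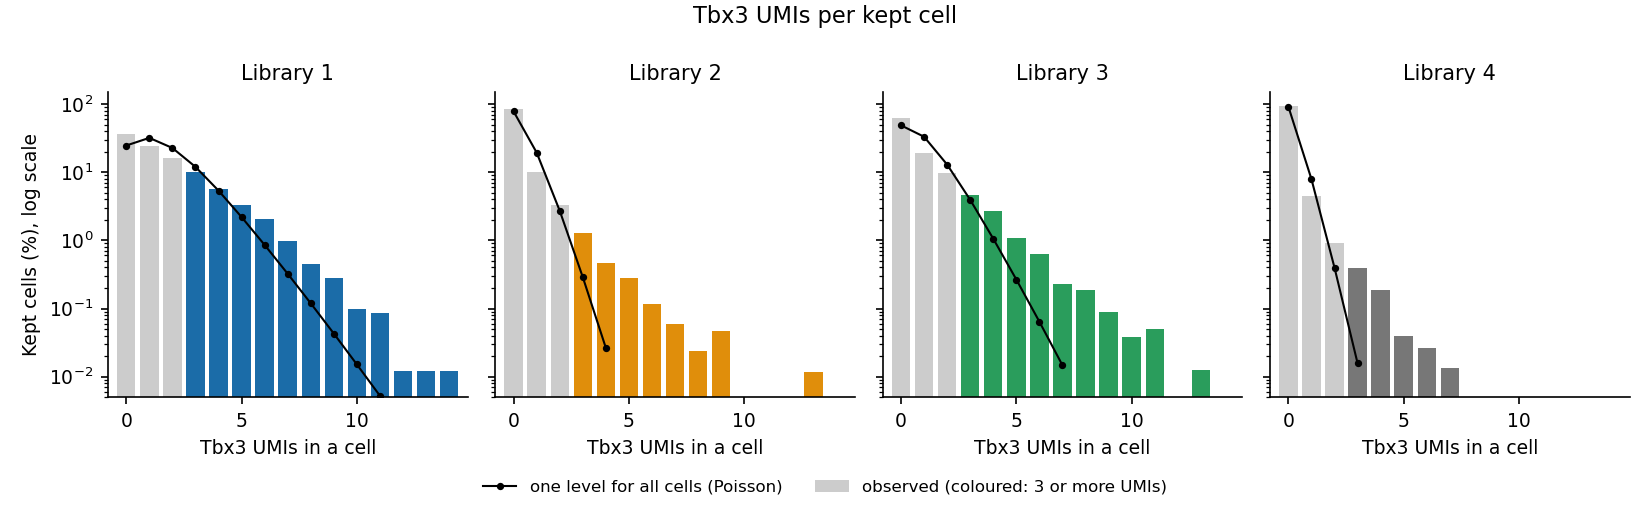
Percentage of filtered cells (log scale) by the number of Tbx3 UMIs in a cell, 1 panel for each library; coloured bars are the Tbx3-high cells and the black line is what a single Tbx3 level per library would give. Wherever cells were found at 4 or more UMIs the bars lie above the line, and 1 cell with more than 14 UMIs is not shown.

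After all cells were thinned to 5000 UMIs, which left out 0 cells, at least 1 Tbx3 UMI remained in 29.0%, 4.75%, 15.2% and 1.81% of the cells of libraries 1 to 4. The order of the libraries was that of the raw counts. The level of Tbx3 itself over all filtered cells was 75.2 counts per 1000000 UMIs (CPM) in library 1, 35.2 in library 3, 10.9 in library 2 and 3.76 in library 4. The Tbx3-high cells carried 63.4%, 50.3%, 35.2% and 27.1% of all Tbx3 UMIs in the same order. Inside the class the Tbx3 level, which the selection fixes from below, lay between 130 CPM (library 4) and 176 CPM (library 1).

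The label of naive cells was set beside Zfp42, which took no part in choosing the Tbx3-high cells but defines the cells they are compared with. A limit of 5 UMIs is also met more often in deeper cells, so the shares that follow are a description. Zfp42 reached 5 UMIs in 1727 of 1884, 184 of 196, 716 of 756 and 42 of 49 Tbx3-high cells, or 91.7%, 93.9%, 94.7% and 85.7%. Over all filtered cells, which were shallower, the shares were 82.3%, 77.9%, 70.0% and 48.7%. Read the other way, Tbx3-high cells made up 25.9%, 2.77%, 13.1% and 1.11% of the cells of libraries 1 to 4 that had 5 or more Zfp42 UMIs and fewer than 5 keratin UMIs. Among low-keratin cells without a Zfp42 UMI the shares were 4.21%, 0.203% and 0.928% in libraries 1 to 3. In library 4 there was none in 1279 such cells, with an upper limit of 0.288%. Median depths of the Zfp42-positive and Zfp42-negative cells were 18914 and 18634 UMIs in library 1, 22394 and 19558 in library 2, 19385 and 18682 in library 3, and 22355 and 18960 in library 4. The Zfp42-negative cells were thus of similar depth in libraries 1 and 3 and shallower in libraries 2 and 4.

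Cells rich in the keratins Krt8 and Krt18 are another population of these cultures. Of the Tbx3-high cells 5, 3 and 21 in libraries 1 to 3 had 5 or more keratin UMIs, as did 6 of the 49 in library 4. Among all keratin-high cells the Tbx3-high share was 4.31%, 2.70%, 2.46% and 0.847% in libraries 1 to 4. In library 2 this share (0.561 to 7.70%) was not distinguishable from the 2.77% of naive cells, nor in library 4 (0.312 to 1.84%) from their 1.11%. In library 2 the Tbx3 level was 4.16 CPM (2.27 to 6.97) in the keratin-high cells and 12.8 CPM (12.2 to 13.3) in the naive cells, and in library 4 it was 2.22 CPM (1.64 to 2.94) and 6.23 CPM (5.71 to 6.78). The keratin-high cells of these libraries were deeper, with medians of 27070 and 26920 UMIs. In the 179 cells of library 4 with 20 or more keratin UMIs the Tbx3 level, 5.71 CPM (3.88 to 8.10), was not distinguishable from that of the naive cells.

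Krt8 and Krt18, which the Tbx3-negative naive cells were held low in, stood at 53.4 and 56.7 CPM in Tbx3-high cells of library 3 against 6.90 and 8.38 CPM, and the contractile list, described further below, was also higher there. The lists of primed, primitive endoderm, trophectoderm and fibroblast genes stayed at a few CPM. In libraries 1 to 3 the 9 primed and primitive streak genes summed to 2.71 to 3.63 CPM in Tbx3-high cells and 2.03 to 3.74 CPM in Tbx3-negative naive cells. The 7 primitive endoderm genes summed to 1.48 to 3.91 against 1.11 to 1.5 CPM, the 6 trophectoderm genes to 1.02 to 2.60 against 0.989 to 1.59 CPM, and the 6 fibroblast genes to 1.40 to 2.61 against 1.68 to 4.38 CPM. Lhx1 and the fibroblast genes Lum and Dcn were at 0 UMIs in the Tbx3-high cells of all 3 libraries, and 0 genes of these lists were abundant enough to be open to the count of genes below. Some of these low sums were nevertheless higher in Tbx3-high cells beyond counting error. For primitive endoderm this held in library 2, with a log2 ratio of 1.82 (1.08 to 2.49) from 21 UMIs, of which 8 were of Cubn. For trophectoderm it held in library 3, with 0.95 (0.40 to 1.49) from 48 UMIs, and for primed and streak genes in library 1, with 0.43 (0.07 to 0.79) from 164 UMIs. None of these held in all 3 libraries, and their part in the results below was not tested. Apart from the few keratin-high cells and these low sums in single libraries, the values do not go against the label of naive cells.

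The 7 two-cell-like genes found in the matrix, which mark rare cells resembling the two-cell embryo, summed to 0.487, 0 and 1.08 CPM in the Tbx3-high cells of libraries 1 to 3. A count of 0 in library 2 allows up to 0.559 CPM at the floor of 3 counts, and up to 0.687 CPM by the exact interval. The Tbx3-negative naive cells held 0.359 to 0.396 CPM, so the 2 classes could not be told apart in library 2 at this depth. In library 3 the log2 ratio was 1.5 (0.55 to 2.44), from 20 UMIs in Tbx3-high cells.

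The Tbx3-high cells, chosen on raw counts, were deeper than the cells they were compared with. Median UMIs were 20777, 24419 and 21176 in Tbx3-high cells of libraries 1 to 3 and 17763, 22227 and 18971 in Tbx3-negative naive cells. Cells above 2 times their library's median UMIs, a range where 2 cells in 1 droplet are more likely, made up 12.6%, 9.69% and 10.8% of the Tbx3-high cells and 2.07%, 3.49% and 3.31% of the Tbx3-negative naive cells. Mitochondrial shares were alike, with medians of 5.48%, 4.17% and 4.68% against 5.37%, 4.17% and 4.68%. Among the filtered cells 105 barcode sequences occurred in more than 1 library, and 19 of the 2885 Tbx3-high cells carried one.

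The 3 genes named beside Tbx3 as markers of these cells behaved differently from each other. Slc11a1 encodes a metal ion transporter of phagosome membranes. Its level was 13.7 CPM in Tbx3-high and 7.02 CPM in Tbx3-negative naive cells of library 1, 2.61 and 0.686 CPM in library 2, and 6.62 and 2.53 CPM in library 3. It was therefore 1.95-, 3.80- and 2.61-fold higher in Tbx3-high cells, and the intervals of the 2 classes did not overlap in any of these libraries. Library 2 rests on 14 counts in the Tbx3-high cells, too few for Slc11a1 to be open to the count of genes below. Slc11a1 also differed between libraries, with 10.2-fold (8.03 to 13.1) more in library 1 than in library 2 among Tbx3-negative naive cells. In library 4 it had 0 counts in Tbx3-high cells. This allows up to 2.21 CPM at a floor of 3 counts and 2.71 CPM by the exact interval, above the 0.550 CPM of the Tbx3-negative naive cells.

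Ppp1r14d, which encodes an inhibitory subunit of protein phosphatase 1, was at 17.7, 2.42 and 12.1 CPM in Tbx3-high cells of libraries 1 to 3 and at 15.5, 1.15 and 9.80 CPM in Tbx3-negative naive cells. Its log2 ratios of Tbx3-high over Tbx3-negative naive cells were 0.20 (0.05 to 0.35), 1.07 (0.13 to 1.89) and 0.31 (0.08 to 0.54). The difference between libraries was larger than that between classes, since the Tbx3-negative naive cells of library 1 exceeded those of library 2 by 13.4-fold (11.2 to 16.1). Myo1f, which encodes an unconventional myosin, was at 10.9, 2.23 and 9.87 CPM in Tbx3-high cells and 12.1, 1.93 and 9.48 CPM in Tbx3-negative naive cells. Its log2 ratios of -0.16 (-0.34 to 0.03), 0.21 (-0.76 to 1.04) and 0.06 (-0.19 to 0.30) all included 0. Myo1f thus marked the libraries rich in Tbx3-high cells, with 6.29-fold (5.39 to 7.36) more in library 1 than in library 2 among Tbx3-negative naive cells, and was not detectably higher in the Tbx3-high than in the Tbx3-negative naive cells of a library. Against all filtered cells with 0 Tbx3 UMIs its log2 ratios were 0.08, 0.45 and 0.71.

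**Figure D2:**
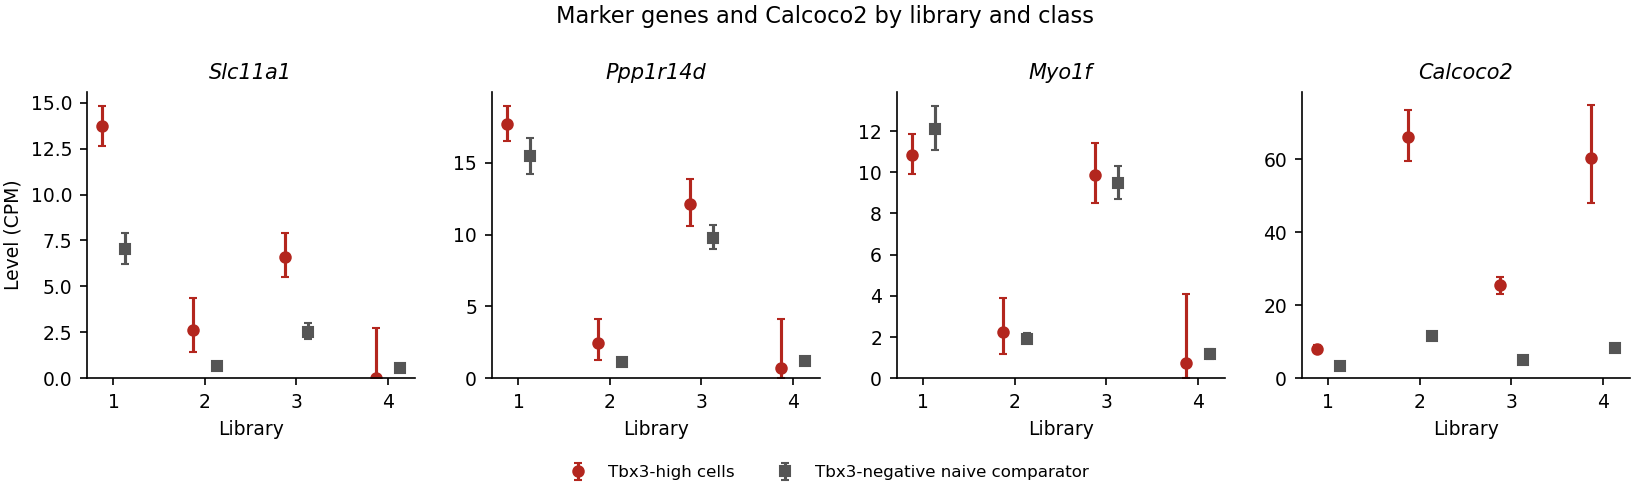
Level (CPM) of Slc11a1, Ppp1r14d, Myo1f and Calcoco2 in the Tbx3-high cells (red circles) and the Tbx3-negative naive cells (grey squares) of each library, with exact 95% Poisson intervals. Ppp1r14d and Myo1f separate libraries 1 and 3 from 2 and 4 in both classes, and Slc11a1 and Calcoco2 also differ between libraries. Slc11a1 in libraries 1 to 3 and Calcoco2 in every library differ between the classes as well.

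Genes were then counted that differed in the same direction in each of libraries 1 to 3. A gene was open to the count when at least 20 counts were expected for it in the smaller class of every library. Open genes that differed by 1.5-fold or more in all 3 libraries were counted, a rule of size and not a test. Of 9533 open genes, 12 were higher in Tbx3-high cells (0.126%) and 16 were lower (0.168%). At such shares most short gene lists hold no counted gene, so its absence says little about a list. In single libraries 31, 158 and 113 open genes were higher by this fold and 42, 187 and 67 were lower, so most differences in 1 library were not found in all. The counts depended on each library, as 49 higher and 29 lower genes passed without library 1, 56 and 44 without library 2, and 17 and 26 without library 3. With the Tbx3-negative naive cells weighted to the depth of the Tbx3-high cells, 13 genes were higher, 10 of them among the 12, and 29 were lower, 15 of them among the 16. Most genes differed little, and the median absolute log2 ratio was 0.09, 0.12 and 0.11. Cells were chosen by Tbx3, Zfp42, Krt8 and Krt18, so these genes were left out. The counted genes were chosen on the ratios given below. Their direction in libraries 1 to 3 is therefore fixed, and their intervals there are a description.

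The first of the 12 higher genes was Calcoco2, which encodes an autophagy receptor (chromosome 11, 96099326 to 96111964, minus strand, GRCm38). It stood at 8.11 CPM (7.30 to 8.98) in Tbx3-high and 3.26 CPM (2.73 to 3.87) in Tbx3-negative naive cells of library 1. In library 2 the levels were 66.3 and 11.5 CPM, in library 3 25.4 and 5.10 CPM, and in library 4 60.3 and 8.34 CPM. It was therefore 2.48-, 5.79-, 4.99- and 7.23-fold higher in Tbx3-high cells of libraries 1 to 4. Between libraries its level was lowest in both classes of library 1, where Tbx3 was highest, and highest in library 2, which had more Tbx3 than library 4. Calcoco2 was the 1 gene that was higher by 2-fold in all 3 libraries counted.

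Among the other higher genes, Dsp encodes desmoplakin and Dsg2 a desmoglein, both components of desmosomes, the junctions that anchor intermediate filaments. Dsp was at 6.03, 11.2 and 6.13 CPM in Tbx3-high cells of libraries 1 to 3 against 3.56, 4.77 and 2.69 CPM. Dsg2 was at 10.8, 19.0 and 17.5 against 6.60, 11.2 and 11.5 CPM. For both genes each Tbx3-high level lay above the level of the Tbx3-negative naive cells of its own library with no overlap of intervals.

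Myof encodes myoferlin, a ferlin involved in membrane fusion and repair. It was at 29.0, 41.0 and 19.1 CPM against 17.0, 14.7 and 7.82 CPM, or 1.70-, 2.78- and 2.45-fold higher. Lpar1, a receptor for lysophosphatidic acid, was at 3.72, 15.8 and 3.91 CPM against 2.00, 8.58 and 1.57 CPM. These were followed by Tmem108, a transmembrane protein, with log2 ratios of 0.75, 0.97 and 1.00 in libraries 1 to 3, and by the calcium-binding protein gene S100a13 with 0.74, 0.86 and 1.03. Both had intervals that excluded 0 in each library.

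Of the remaining higher genes, Myh13, a myosin heavy chain, had log2 ratios of 0.69, 1.01 and 0.97, Fam81a 0.64, 0.89 and 1.00, and Arl14epl 0.64, 1.76 and 1.89. Ahnak2, which encodes a giant scaffold protein, had 0.73, 0.78 and 0.61. Cald1, encoding the actin-binding protein caldesmon, had 0.65, 0.84 and 1.48. The Cald1 values were 0.47, 0.74 and 0.22 when the Tbx3-high cells were held to the same Zfp42 and keratin limits as the Tbx3-negative naive cells. With those limits Cald1 and Ahnak2 left the count, and the other 10 genes stayed in it. At matched depth Cald1, at 0.23 in library 1, and Dsg2, at 0.46 in library 3, fell short of the fold. The parts of Zfp42, keratin and depth in Cald1 were not separated.

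Of the 16 lower genes Neurod1, a neuronal basic helix-loop-helix factor, was at 9.13, 13.4 and 9.87 CPM in Tbx3-high cells of libraries 1 to 3 against 18.5, 26.8 and 18.9 CPM. It was lower by 2.02-, 2.00- and 1.92-fold, an even difference across the 3 libraries. Ina, which encodes the neuronal intermediate filament protein alpha-internexin, was the most abundant of the 16 and stood at 53.3, 93.8 and 63.4 CPM against 95.3, 155 and 107 CPM. Sox11, a factor of neural progenitors, was at 6.36, 18.6 and 8.79 against 10.3, 31.5 and 15.4 CPM. The whole interval of each ratio lay on the lower side, which is a description because the genes were chosen on these ratios.

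The lower genes included 1 gene from each of 3 signalling lists. Sp5, a target of Wnt signalling that encodes a zinc finger factor, was at 3.86, 3.35 and 7.27 CPM against 7.02, 6.87 and 13.3 CPM. Fgfr2, a receptor for fibroblast growth factors, was at 1.37, 5.03 and 2.87 against 3.88, 7.80 and 5.06 CPM. Gbx2, a homeobox gene that LIF and STAT3 can induce in mESC, was at 15.1, 7.45 and 21.1 against 24.1, 16.7 and 32.8 CPM. All 3 genes were lower in each of libraries 1 to 3, as the rule that chose them requires.

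Hes6, Myrf and Crmp1, genes known from neurogenesis, oligodendrocytes and axon guidance, had log2 ratios between -0.63 and -0.89. Prcd, named after a retinal disease, had -0.85, -0.86 and -0.72. Tstd1 had -0.64, -1.39 and -1.09 and Plcxd1 -0.68, -0.65 and -0.71, the latter with an interval that reached 0.04 in library 2. Tstd1 fell short of the fold in library 1 at matched depth (-0.44). The other 4 lower genes fell outside the 12 that were to be named and are named after their values were seen. They are the netrin gene Ntn1 (smallest log2 ratio -0.61), the germ cell RNA-binding protein gene Dnd1 (-0.61), the Wnt receptor gene Fzd2 (-0.60) and the adenosine kinase gene Adk (-0.60). The value of Fzd2, from library 3, was -1.50 there with equal Zfp42 and keratin limits and -0.98 at matched depth, and that of Sox11 in library 1 went from -0.70 to -1.32 at matched depth. With equal Zfp42 and keratin limits 14 of the 16 stayed in the count, without Tstd1 (-0.59 in library 1) and Ntn1 (-0.57 in library 2).

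In the 49 Tbx3-high cells of library 4 all 12 higher genes again had a log2 ratio above 0, from 0.51 for Lpar1 to 3.11 for S100a13. Of the 16 lower genes 12 were below 0 there, and Sp5, Fgfr2, Fzd2 and Sox11 lay between 0.13 and 0.67. Intervals that included 0 were found for these 4, for Neurod1, Prcd, Hes6, Plcxd1, Tstd1, Crmp1 and Ntn1 among the others, and for Lpar1 and Myh13 among the higher genes. The 49 cells include 6 with 5 or more keratin UMIs, and these ratios were not computed without them.

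**Figure D3:**
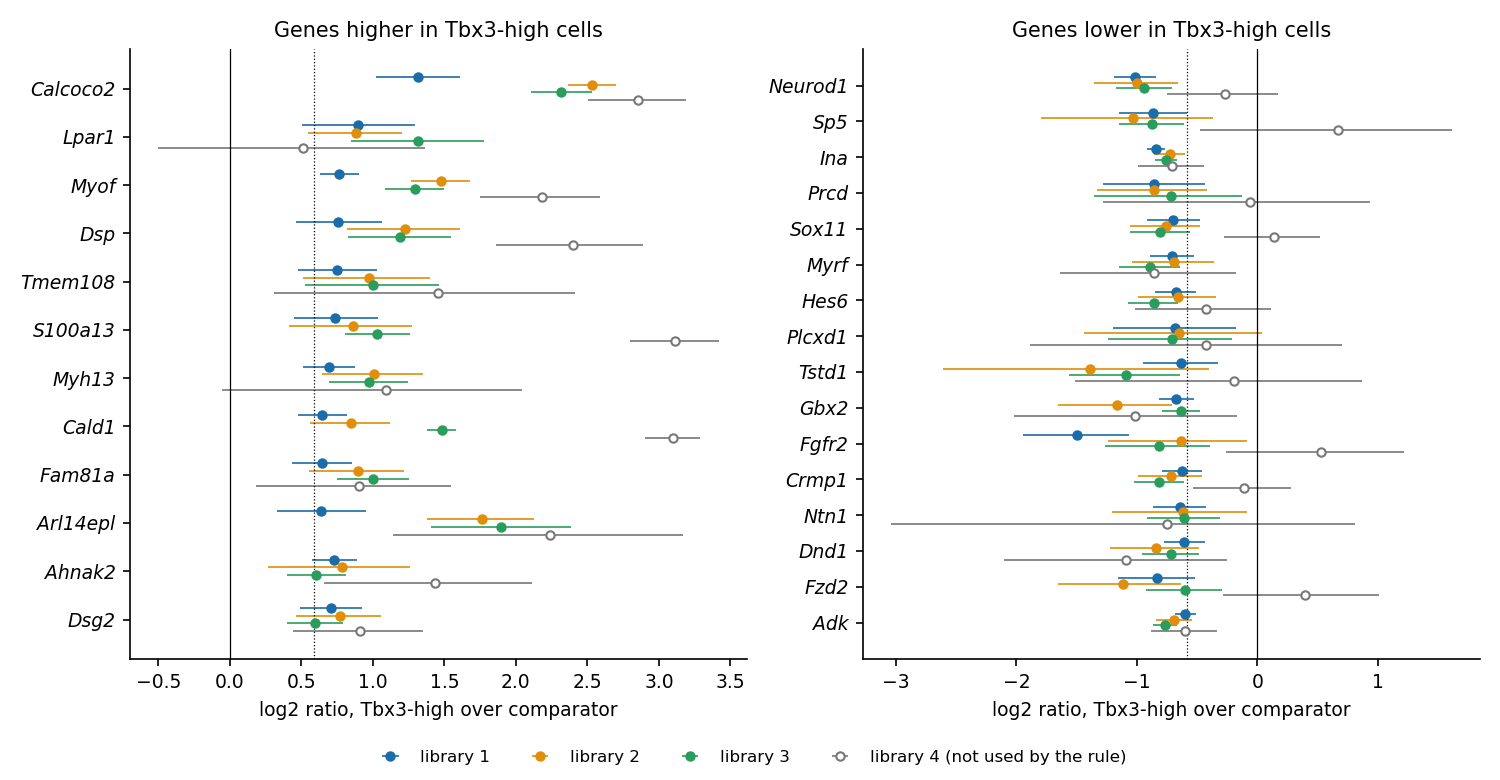
Log2 ratio of CPM in Tbx3-high over Tbx3-negative naive cells with exact 95% counting intervals, for the 12 higher (left) and 16 lower (right) genes and for each library; the dotted line marks a 1.5-fold difference. Libraries 1 to 3 (filled) lie past the line by the way the genes were counted, and library 4 (open) was not used.

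The choice of Tbx3-negative cells mattered for some genes. When all filtered cells with 0 Tbx3 UMIs were taken, including formative and keratin-high cells, Dsp was no longer higher in libraries 1 and 3, with log2 ratios of -0.01, 0.86 and -1.27, and Cald1 was lower, with -1.97, -0.20 and -2.08. The direction of both genes thus depended on which Tbx3-negative cells were taken. In library 3 Ahnak2 also changed sign, at -0.21. Lpar1 (0.18), Dsg2 (0.17), Gbx2 (-0.18) and Ntn1 (-0.03) were among the genes that fell short of the fold there. Calcoco2, Myof, Myh13, Fam81a and S100a13 stayed in the count against either set of cells. Of the lower genes, 9 did so: Hes6, Tstd1, Sp5, Crmp1, Plcxd1, Fzd2, Sox11, Adk and Myrf.

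The 250 bases before and 50 bases after each gene start listed by RefSeq were read for 3 short motifs, to show what lies upstream of genes that were counted together. Of the 12 higher genes 9 and of the 16 lower genes 12 were found in the RefSeq promoter table (GRCm38.p6). GGTGTGA, the core of the T-box motif, occurred on either strand in the promoter of 1 of the 9 and of 0 of the 12, against 4.60% of all 27025 genes in the table. The STAT motif TTCNNNGAA occurred in 2 of 9 and 0 of 12 against 9.55%, and the TCF/LEF motif CTTTGAA in 1 of 9 and 0 of 12 against 5.93%. With so few genes nothing can be read from these shares. A match of letters is not a binding site. The stretches that hold the T-box motif and the STAT motifs upstream of a higher gene are shown with the motif in capitals, 5′ to 3′ on the strand of the gene. The motif lies 164, 66 and 223 bases before a listed start of S100a13, Tmem108 and Myh13, and Tmem108 has a further start without it. The stretches of Tmem108 and Myh13 lie inside the longer gene spans of the GENCODE annotation.
S100a13 (chr3:90514260-90514289, plus strand, T-box): gccactggaccGGTGTGAggagacctgtct
Tmem108 (chr9:103692853-103692884, minus strand, STAT): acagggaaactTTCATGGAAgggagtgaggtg
Myh13 (chr11:67326869-67326900, plus strand, STAT): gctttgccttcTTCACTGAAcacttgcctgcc

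The naive factors other than Tbx3 and Zfp42 were slightly higher in Tbx3-high cells. The 12 genes of the list summed to 2371, 2266 and 2177 CPM in Tbx3-high cells of libraries 1 to 3 and to 2177, 1992 and 1915 CPM in Tbx3-negative naive cells, log2 ratios of 0.12, 0.19 and 0.19. None of the 12 passed the 1.5-fold rule, and 9 were higher in every library, where 23.2% of all open genes were higher in every library. The median log2 ratio of the list was 0.32, against -0.01 over all open genes. Most naive factors thus differed in one direction by small amounts.

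Tfcp2l1, a factor downstream of LIF and STAT3, was at 117, 129 and 108 CPM against 89.0, 88.4 and 71.6 CPM. Klf4, a Krüppel-like factor of the same pathway, was at 192, 171 and 176 against 162, 120 and 127 CPM, and Nanog at 169, 179 and 149 against 150, 145 and 119 CPM. Tcl1, a co-activator of AKT kinases, was at 116, 79.9 and 82.0 against 93.6, 50.2 and 55.7 CPM. All of these were higher in each library with intervals of the ratio above 0.

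Esrrb, an orphan nuclear receptor of the naive network, was at 79.8, 77.5 and 71.1 against 63.5, 59.5 and 60.7 CPM, and the growth factor gene Fgf4 had log2 ratios of 0.33, 0.33 and 0.30. Prdm14, which restrains DNA methylation in naive cells, ranged from a log2 ratio of 0.15 (-0.05 to 0.36) in library 1 to 1.09 (0.64 to 1.5) in library 2. Dppa3 (Stella) did not keep one direction. It was lower in library 1, at 20.2 against 30.6 CPM, higher in library 2, at 106 against 80.1 CPM, and at 56.0 against 62.2 CPM in library 3. Nr5a2 and the threonine dehydrogenase gene Tdh also changed sign between libraries.

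The summed formative list was lower in Tbx3-high cells of libraries 1 to 3. The Tbx3-negative naive cells were held to Zfp42 and keratin limits and the Tbx3-high cells to Tbx3 alone. No formative gene took part in choosing either class, but the Zfp42 and keratin limits left cells with fewer formative transcripts. All filtered cells with 0 Tbx3 UMIs held 306, 845 and 480 CPM of the list in libraries 1 to 3. The 10 genes of the list summed to 181, 441 and 228 CPM in Tbx3-high cells of libraries 1 to 3 against 225, 604 and 357 CPM, log2 ratios of -0.31 (-0.35 to -0.27), -0.45 (-0.51 to -0.40) and -0.64 (-0.69 to -0.60). Of the 8 genes open to the count, 5 were lower in every library, none was higher in every library and none passed the 1.5-fold rule in all. Over all open genes 29.2% were lower in every library. The median log2 ratio of the list was -0.46.

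The 5 genes that were lower in every library were Dnmt3a, Dnmt3b, Pou3f1, Lef1 and Tcf15. Dnmt3b, a de novo DNA methyltransferase, was at 55.4, 209 and 78.3 CPM against 77.9, 287 and 127 CPM, and Dnmt3a at 14.9, 37.2 and 22.9 against 21.7, 48.7 and 44.7 CPM. Lef1, a transcription factor of the Wnt pathway, was at 4.12, 12.7 and 5.21 against 6.11, 26.2 and 11.2 CPM. Tcf15, which primes mESC for differentiation, was at 42.2, 67.6 and 66.3 against 58.3, 93.6 and 109 CPM. Otx2, another formative factor, was at 25.0, 67.6 and 19.7 against 23.5, 79.3 and 27.5 CPM and did not keep one direction.

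The general pluripotency genes moved little as a sum, while single genes differed in both directions. Pou5f1 was at 853, 801 and 696 CPM against 852, 782 and 721 CPM, and Sox2 at 462, 494 and 414 against 414, 447 and 366 CPM. Utf1 and Dppa4, which mark pluripotent cells more broadly, were lower in each library, Utf1 at 538, 391 and 509 against 630, 499 and 622 CPM. Of the 9 genes, all open, 2 were higher and 4 lower in every library, against 23.2% and 29.2% of all open genes. None passed the rule, which says little, since 0.126% of all open genes passed it upwards and 0.168% downwards. The sum of the list had log2 ratios of -0.01, -0.05 and -0.07.

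**Figure D4:**
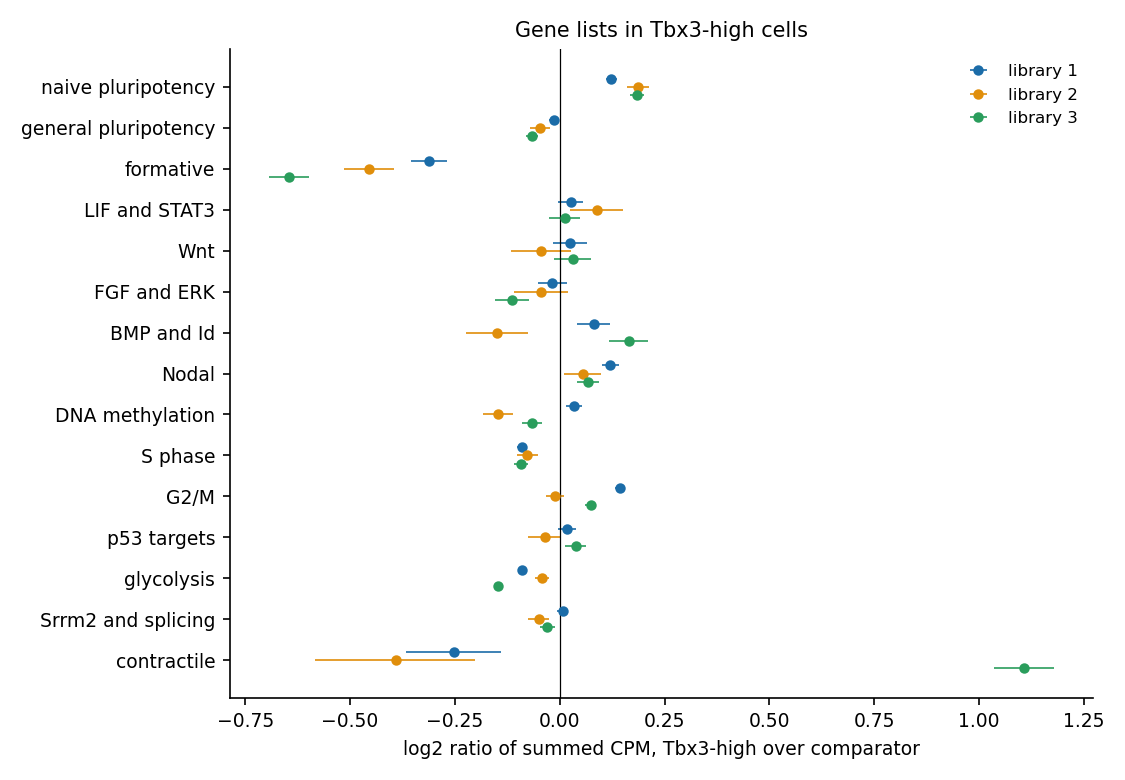
Log2 ratio of the summed CPM of the pluripotency, signalling, cell cycle, metabolic, splicing and contractile gene lists in Tbx3-high over Tbx3-negative naive cells, with exact 95% counting intervals, for libraries 1 to 3. The naive list lies above 0 and the formative list below 0 in each library, and the contractile list of library 3 is at 1.11.

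Signalling genes were read from lists of ligands, receptors and feedback targets. In the LIF and STAT3 list 9 of 11 genes were open, and Gbx2 alone passed the rule, downwards. Of the 9 open genes 5 were higher and 2 lower in every library, against 23.2% and 29.2% of all open genes. Stat3 was at 51.4, 48.4 and 48.7 CPM against 47.1, 42.2 and 46.2 CPM, and Socs3, the feedback inhibitor of the pathway, at 41.5, 41.5 and 37.1 against 44.3, 41.0 and 41.6 CPM. The target kinase gene Pim1 had log2 ratios of 0.06, 0.47 and 0.15. The summed list had log2 ratios of 0.03, 0.09 and 0.01, close to the median over all genes.

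In the FGF and ERK list all 11 genes were open, 8 were lower in every library, where 29.2% of all open genes were, and Fgfr2 alone passed the rule. Fgf4 and Fgfr1 were higher in every library, the latter with intervals that included 0, as was Egr1, an immediate early gene, at 5.85, 19.5 and 5.48 CPM against 4.45, 12.7 and 3.75 CPM. The feedback gene Spred1 was at 22.0, 12.1 and 27.3 against 25.9, 21.9 and 35.7 CPM. The ligand and the immediate early gene thus differed from the feedback genes in direction. In the Wnt list Sp5 alone of 7 open genes passed the rule, downwards, while Axin2, a general feedback target, had log2 ratios of -0.02 (-0.28 to 0.25), -0.15 (-0.67 to 0.33) and 0.66 (0.38 to 0.94).

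Over all open genes 0.126% passed the rule upwards and 0.168% downwards, so 0 in a short list says little. Of the 6 open genes in the BMP list 0 passed the rule, 1 was higher and 1 was lower in every library. The lower one was Id1, at 15.1, 24.8 and 28.1 CPM against 18.7, 60.1 and 35.1 CPM. The sum of the BMP list had log2 ratios of 0.08, -0.15 and 0.16. None of the 6 open Nodal genes and 7 open PI3K and AKT genes passed the rule. The sums of the Nodal and of the PI3K and AKT lists had log2 ratios of 0.12, 0.06 and 0.07 and of -0.02, -0.14 and -0.12. In the DNA methylation list 0 of 8 open genes passed. Dnmt3a and Dnmt3b were lower, the demethylating enzyme gene Tet2 was higher, at 56.5, 51.6 and 44.7 against 42.9, 33.8 and 35.5 CPM, and the maintenance enzyme gene Dnmt1 had log2 ratios of 0.06, -0.05 and -0.01.

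Other members of the T-box family were scarce. Of 16 listed, only Mga, which encodes a large T-box repressor, was open, at 167, 155 and 157 CPM against 146, 146 and 143 CPM. The close relative Tbx2 had 5, 3 and 3 counts in the Tbx3-high cells of libraries 1 to 3. Tbx5, Tbx19, Tbx21 and Tbx22 had 0 counts in the Tbx3-high cells of all 3 libraries. Of the 6 open genes that mark other subsets of these cultures, only Prcd passed the rule, downwards. Over all open genes 0.168% passed it downwards and 0.126% upwards, so not passing says little about the other genes. Spic, a factor of a rare mESC subset, was at 1.02, 8.19 and 0.488 CPM against 0.717, 3.28 and 0.210 CPM, with too few counts to be open.

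Cell cycle genes differed by small amounts. The 15 G2/M genes summed to 3373, 3423 and 3289 CPM in Tbx3-high cells of libraries 1 to 3 against 3055, 3449 and 3125 CPM, log2 ratios of 0.14, -0.01 and 0.07. With the Tbx3-negative naive cells weighted to the same distribution of UMIs the ratios were 0.01, -0.05 and 0.03. Of the 14 S-phase genes 12 were lower in every library, where 29.2% of all open genes were. Their sum had log2 ratios of -0.09, -0.08 and -0.09, and -0.07 in each library at matched depth. Depth matching had the opposite effect on the formative list, whose ratios went to -0.51, -0.57 and -0.79.

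Of the 8 open genes of threonine, serine and glycine metabolism, 9 of glycolysis, 10 p53 targets, 8 splicing genes and 3 Y-linked genes, 0 passed the rule. Only 0.126% of all open genes passed it upwards and 0.168% downwards. Of the 9 glycolysis genes 6 were lower in every library, where 29.2% of all open genes were. The sum of the 9 had log2 ratios of -0.09, -0.04 and -0.15, with Ldha at 535, 875 and 586 CPM against 610, 968 and 743 CPM. Ass1, which encodes argininosuccinate synthase, was higher, with log2 ratios of 0.36, 0.60 and 0.64. The sum of the threonine, serine and glycine list that holds Ass1 had log2 ratios of 0.02, 0.14 and -0.02. The 10 p53 targets had log2 ratios of 0.02, -0.04 and 0.04 for their sum. Srrm2, the gene trapped in one of the lines, was at 383, 517, 226 and 340 CPM in Tbx3-high cells of libraries 1 to 4 and at 388, 525, 233 and 343 CPM in Tbx3-negative naive cells. The ratio intervals included 0 in all 4 libraries, while its level differed between libraries. The splicing list as a whole had log2 ratios of 0.01, -0.05 and -0.03, and the Y-linked list of this male line 0.14, -0.03 and 0.33.

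The 9 contractile genes summed to 27.4 and 43.4 CPM in Tbx3-high cells of libraries 1 and 2 against 32.6 and 56.8 CPM, but to 145 against 67.3 CPM in library 3. The Tbx3-negative naive cells were held to low keratin and the Tbx3-high cells were not. With the same limits on both, the value of library 3 was 59.8 CPM, a log2 ratio of -0.17 (-0.27 to -0.07), and all 3 libraries lay below 0.

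Cells with fewer Tbx3 UMIs than the threshold were described in the same genes. For this the cells of libraries 1 to 3 with 5 or more Zfp42 UMIs and little keratin were divided by Tbx3 UMIs. Cells with 1 or 2 Tbx3 UMIs belong to neither class and took no part in counting the genes. All ratios share the cells with 0 UMIs against which the genes were chosen, which favours the direction of the choice, so the ratios are a description at every step. Counts were summed over the genes of each direction, so abundant genes such as Ina weigh most in these ratios. The sum of the 12 higher genes had log2 ratios over the cells with 0 UMIs of 0.32, 0.49 and 0.26 at 1 UMI in libraries 1 to 3, and of 0.51, 0.86 and 0.51 at 2 UMIs. From 3 UMIs on the direction is fixed by the way the genes were chosen. The ratios reached 1.01 and 1.15 at 7 or more UMIs in libraries 1 and 3, and 1.70 at 5 to 6 UMIs in library 2, where fewer than 20 cells had more. The sum of the 16 lower genes went from -0.37, -0.21 and -0.28 at 1 UMI to -0.96 and -1.03 at 7 or more UMIs in libraries 1 and 3 and -1.09 at 5 to 6 UMIs in library 2.

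Some single genes followed a similar course in the libraries given here as examples. Calcoco2 in library 1 did not rise from 2 UMIs (6.54 CPM) to 3 UMIs (6.35 CPM) over all filtered cells. Calcoco2 in library 3 was at 5.10 CPM in cells with 0 Tbx3 UMIs, 8.66 with 1, 12.8 with 2, 21.4 with 3 and 38.6 with 7 or more. In library 2 it went from 11.5 CPM with 0 to 23.8 with 1 and 81.5 with 5 to 6. Ina in library 1 went from 95.3 CPM with 0 through 74.5 with 1 and 64.1 with 2 to 42.5 with 7 or more. Neurod1 in library 2 did not, being at 26.8 CPM with 0, lowest with 3 and at 21.7 CPM with 5 to 6. Median UMIs also grew along the series, in library 1 from 17763 in cells with 0 to 31272 in cells with 7 or more Tbx3 UMIs, and the part of depth in the trend was not tested.

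**Figure D5:**
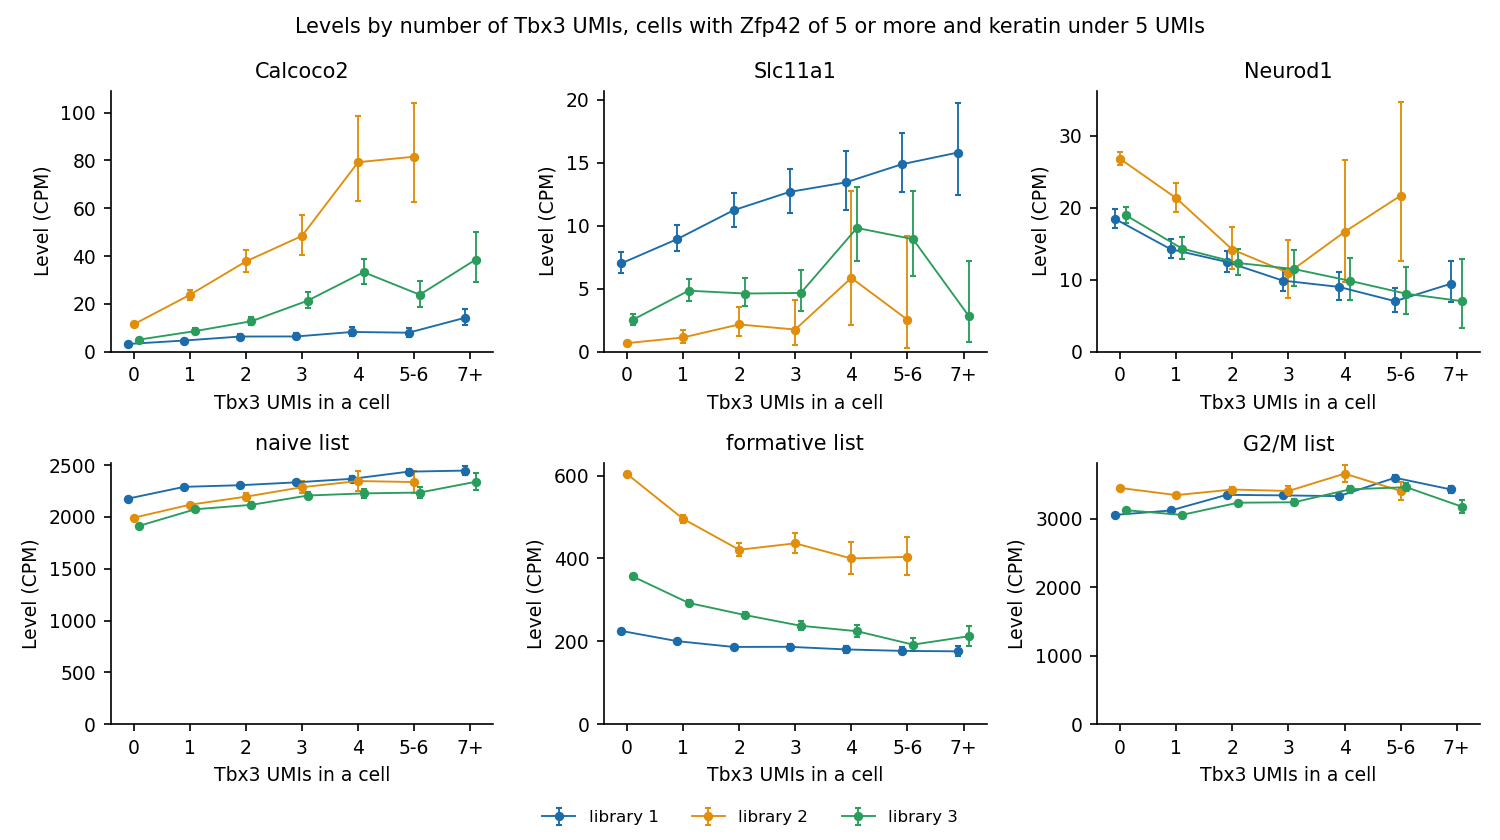
Level (CPM, with exact 95% Poisson intervals) of Calcoco2, Slc11a1, Neurod1 and 3 gene lists by the number of Tbx3 UMIs in a cell, for libraries 1 to 3. Calcoco2 and the naive list are higher and the formative list is lower at 1 and 2 UMIs than at 0 in each library, while Neurod1 in library 2 is lowest at 3 UMIs.

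Cells just outside and just inside the threshold were set side by side. Of all filtered cells, 1306, 283 and 760 held exactly 2 and 830, 110 and 362 held exactly 3 Tbx3 UMIs in libraries 1 to 3. The naive list was at 2293, 2188 and 2036 CPM with 2 UMIs and at 2322, 2236 and 2124 CPM with 3. The formative list was at 190, 429 and 268 CPM with 2 and at 188, 471 and 244 CPM with 3. Calcoco2 was at 6.54, 37.8 and 12.2 CPM with 2 and at 6.35, 47.3 and 20.3 CPM with 3. The number of cells declined from 0 UMIs upwards with no gap at the threshold.

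The Tbx3-high cells also differed from library to library. Between libraries 1 and 2, 410 of 9149 genes differed at least 2-fold in the Tbx3-high cells, and 275 of the 410 differed by this fold in the same direction between the Tbx3-negative naive cells. Between libraries 1 and 3 there were 88 of 9527 genes, of which 50 did, and between libraries 2 and 3 there were 347 of 9278, of which 196 did. The shared part was 67.1%, 56.8% and 56.5%. Of the same genes 380, 97 and 292 differed by this fold between the Tbx3-negative naive cells of these pairs. The median absolute log2 ratio in the Tbx3-high cells was 0.30, 0.13 and 0.27 between these pairs of libraries, of which none can be named as replicates. Dnmt3b was at 55.4 CPM in Tbx3-high cells of library 1 and at 209 CPM in those of library 2, above the 77.9 CPM of the Tbx3-negative naive cells of library 1. A formative gene could thus be lower in Tbx3-high cells than in the cells of the same library and still be higher than in either class of another.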

How the data were processed

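Raw UMI counts per gene and barcode were deposited as 1 matrix of 4 libraries (32285 genes, 41142 barcodes). The authors made these counts with Cell Ranger 6.1.2 on mm10, joined the libraries with its aggregation step, which equalises depth, and per the labels collected 2 WT and 2 Srrm2 hKO samples. No source used here maps a barcode suffix to a sample, so samples were not compared.

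Cells were kept per library when UMIs and detected genes were each at least the mean minus 1 SD and the mitochondrial share was at most 10%. Counts were summed per library and class and scaled to CPM. The members, gene lists and rules were chosen with earlier results of these data known. Genes named are Tbx3, the 3 markers, the 12 counted genes with the greatest smallest log2 ratio in each direction, and members of 25 gene lists, of which 1 gene was not found. Levels have exact Poisson, shares Clopper-Pearson and ratios conditional binomial intervals (95%), and a count of 0 was given a floor of 3 counts. No doublet caller was run, and an alternative left out cells above 2 times the median UMIs. Gene coordinates are from GENCODE on GRCm38. Python 3.11.15, numpy 2.4.6 and scipy 1.17.1 were used, and the counting was tested on simulated data.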

Additional observations from a re-analysis of the deposited data

Results flagged for a closer look

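The 49 Tbx3-high cells of library 4, which entered no count of genes, held transcripts of other cell types above their level in the Tbx3-negative naive cells of that library. The contractile list stood at 485 CPM against 92.1 CPM, the primitive endoderm list at 22.8 CPM against 1.52 CPM and the trophectoderm list at 13.2 CPM against 1.56 CPM. A few cells carried these counts. For the contractile list 577 of 659 UMIs lay in 6 cells, and for primitive endoderm 23 of 31 UMIs lay in 1 cell. Without the 6 cells that had 5 or more keratin UMIs, the remaining 43 cells were at 79.0 CPM for the contractile list, a log2 ratio of -0.22 (-0.54 to 0.08), at 5.39 CPM for primitive endoderm, 1.83 (0.35 to 2.99), and at 3.59 CPM for trophectoderm, 1.20 (-0.70 to 2.60), the last 2 from 6 and 4 UMIs. The interval of the primitive endoderm list thus still excluded 0, but it covers counting error only and not the spread between cells.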

How the results depend on the processing

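No paired analysis was possible because no barcode suffix is tied to a labelled replicate and no result comes from a test. The counts of 12 higher and 16 lower genes depended on the limits. With a threshold of 2 UMIs 15 genes were higher and 7 lower, of which only 8 and 2 were shared with the main counts. With 5 UMIs, where library 2 dropped out with fewer than 50 cells, 26 were higher and 35 lower, 7 and 13 of them shared. Against all cells without Tbx3, 22 were higher and 161 lower, 5 and 9 of them shared with the main counts, and the naive and formative lists went to log2 ratios of 0.41 and -0.94. In that setting the median log2 ratio over libraries turned negative for Dsp (-0.00609) and Cald1 (-1.97). With comparator cells weighted to the same depth 29 genes were lower, of which 15 were shared. Without cells above 2 times the median UMIs 11 genes were higher and 19 lower, 9 and 13 of them shared with the main counts. An expected count of at least 50 left 4 higher and 10 lower genes, one of at least 5 gave 39 and 38, and a fold of 2 left 1 and 0. Leaving out 1 library gave 17 to 56 higher and 26 to 44 lower genes, with fewer libraries to pass and another set of open genes, namely 49 and 29 without library 1, 56 and 44 without library 2 and 17 and 26 without library 3. Adding library 4, a choice made after the data were seen, left 2 and 5, with 6084 open genes. Of 465 median values of the 31 named genes under these alternatives, 427 moved by no more than the limit set for them. A further 36 moved by more, and 2, of Dsp and Cald1, changed the sign of a counted difference. The limit was the range of the gene's own main ratios over libraries, so the least even genes had the widest limit. A value within it could still leave the count, as Cald1 did at 0.47 with equal Zfp42 and keratin limits. Myo1f, whose interval included 0 in each library, was 0.45 against all cells without Tbx3 and turned negative with a threshold of 5 UMIs (-0.23), without library 2 (-0.05) and with library 4 (-0.05).

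The share of Tbx3-high cells in libraries 1 to 4 was 39.3%, 5.63%, 19.2% and 1.58% with a threshold of 2 UMIs and 7.27%, 0.540%, 2.32% and 0.0804% with 5. Over all barcodes it was 20.1%, 1.70%, 7.91% and 0.482%. Without the deepest cells it was 21.5% in library 1. Thinned cells with a Tbx3 UMI made up 29.0%, 4.75%, 15.2% and 1.81%. The order of the libraries was the same in each. Library 4 is limited by its 49 Tbx3-high cells.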
